A study of Homo sapiens with 3 samples.

Results

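The genes described here are the human fibroblast growth factor (FGF) ligands, their receptors, and the inhibitors and transcription factors that FGF signalling switches on. They were taken by gene name and number 44 of the 62754 genes measured, with 22 ligand genes, 5 receptor genes, 1 co-receptor gene, 2 adaptor genes and 14 inhibitor, phosphatase and transcription factor genes. RNA was sequenced from wild-type primitive neural progenitor cells (pNPCs), an early and self-renewing neural stage, which were derived from H1, a standard human embryonic stem cell line. All 3 samples are replicates of this 1 group, in a series on chimeric brain models of human neurons and glia. Every culture received FGF2 at 20 ng/ml, the GSK3 inhibitor CHIR99021 at 3 µM, leukemia inhibitory factor at 10 ng/ml, the TGF-beta receptor inhibitor SB431542 at 2 µM and the ROCK inhibitor Y-27632 at 10 µM. No sample without FGF2 is analysed here, so levels are described in the presence of FGF2 and no response to it is measured. H1 is a single line, and nothing in the labels tells separate cultures from repeat preparations, so each p-value refers to variation among these samples that may be technical.

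As background, an FGF ligand binds an FGF receptor, a receptor tyrosine kinase, together with heparan sulfate at the cell surface. The adaptor FRS2 then links the receptor to RAS and to the ERK kinase cascade, which raises transcription of the ETV factors and of immediate early genes such as EGR1. The same cascade raises its own brakes, the SPRY and SPRED proteins and the ERK phosphatase DUSP6. In vertebrate embryos, FGF8, FGF17 and FGF18 are made at the isthmus, the signalling centre between midbrain and hindbrain.

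The libraries held 30038114 to 38400092 expected counts, the estimated reads per gene. Of 10 neural progenitor markers 8 were detected, led by VIM at 1912 ± 194 TPM and NES at 181 ± 21.1 TPM (mean ± SD, n = 3). SOX1 was the lowest of the 8, at 5.54 ± 2.46 TPM. The undetected markers were PAX6 at 0.44 ± 0.34 TPM and HES5 at 6.76, 0.72 and 5.66 TPM in replicates 1, 2 and 3. TPM is a level per transcript length and per library total, and a gene is called detected at 1 TPM or more in all 3 libraries. Pluripotency markers were near 0 apart from DPPA4 (POU5F1 0.11 ± 0.03 TPM, TDGF1 0 counts), and no marker of mesoderm and endoderm (8 genes) or of blood and endothelium (7 genes) was detected. Markers of the midbrain and isthmus (6 of 7 detected), of neural crest (6 of 6), of mesenchyme (7 of 7) and of neurons (7 of 7) were present in the same RNA. Summed mesenchyme markers stood at 647, 1361 and 946 TPM and summed neuron markers at 1124, 686 and 606 TPM in replicates 1, 2 and 3. In bulk RNA, fewer cells of a type and less RNA per cell cannot be told apart.

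Of the 44 genes, 29 were detected, against 23.0% of all genes and 62.2% of protein-coding genes. They were 9 of 22 ligand genes, 5 of 5 receptor genes, both adaptor genes and 13 of 14 inhibitor, phosphatase and transcription factor genes. By their lowest library, the members nearest to the detection limit were FGFR3, detected with 1.95, 5.61 and 10.6 TPM in replicates 1, 2 and 3, and the ligand gene FGF22, not detected, with 0.69, 0.63 and 0.97 TPM. The variation between libraries was tested with edgeR, which asks whether the 3 counts of a gene differ by more than those of genes of like abundance. Of the 33 members abundant enough to be tested, 6 passed at a Benjamini-Hochberg adjusted p under 0.05 (18.2%), beside 1.55% of all 17046 genes tested. They were the ligand genes FGF8, FGF17, FGF18 and FGF19, the receptor gene FGFR3 and the transcription factor gene EGR1. Without replicate 2 or without replicate 3 the count was 2, and without replicate 1 it was 4. Members and lists were chosen with earlier results of these data known, so the share that passed may depend on that choice.

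**Figure D1:**
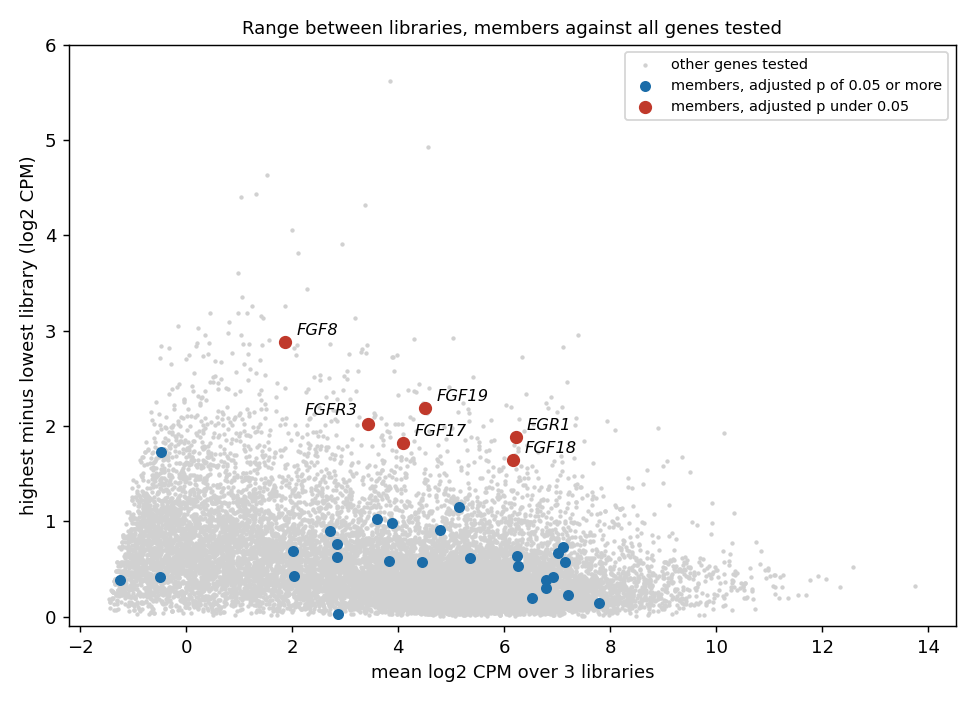
Highest minus lowest library in log2 CPM (library-scaled counts, y axis) against mean log2 CPM (x axis) for the 17046 genes tested, with the 33 members in colour and the 6 that passed the edgeR test in red. FGF8 had the widest range of the members, at 2.88 log2 CPM.

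The FGF8 subfamily, the isthmic ligands, made up 61.5%, 55.1% and 49.0% of the summed TPM of the 22 ligand genes in replicates 1, 2 and 3 (mean 55.2%, and 46.7% in expected counts, which are not scaled for length), and all 3 of its genes varied between libraries. FGF18 (ENSG00000156427, chromosome 5, 171419647 to 171457626, GRCh38) had 91.4, 68.5 and 33.2 TPM in replicates 1, 2 and 3, with 4136, 3108 and 1167 expected counts. It was high in replicates 1 and 2 and low in replicate 3, with a 3.13-fold range in CPM (edgeR adjusted p = 0.0105). FGF17 (chromosome 8, 22039672 to 22048809) had 42.9, 13.85 and 15.2 TPM in replicates 1, 2 and 3. Here replicate 1 stood alone above the other libraries, which lay close together, and the range was 3.54-fold (edgeR adjusted p = 0.000492). FGF8 (chromosome 10, 101770109 to 101780369) had 21.65, 3.54 and 8.21 TPM in replicates 1, 2 and 3, from 378, 55 and 88 expected counts. It was highest in replicate 1 and lowest in replicate 2, a 7.38-fold range in CPM (edgeR adjusted p = 0.00363). Its effective length was set at 688, 597 and 529 bases in these libraries, and its range in TPM was 6.12-fold. All 3 genes passed with their highest value in replicate 1, as 0.311% of all genes tested did. No member passed with its highest value in replicate 2, as 0.346% of all genes tested did.

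The 3 genes did not keep one ratio. FGF18 exceeded FGF8 by 4.22-, 19.4- and 4.04-fold in TPM in replicates 1, 2 and 3, and it exceeded FGF17 by 2.13-, 4.95- and 2.18-fold. Replicate 2 thus differed from both other libraries in the make-up of the subfamily, with FGF8 at 4.12% of its summed TPM there, against 13.9% and 14.5% in replicates 1 and 3. The order FGF18 over FGF17 over FGF8 was the same in all 3 libraries. Leaving out single libraries changed the calls, since without replicate 1 the edgeR adjusted p of FGF8 and of FGF17 was 1.00. It was 0.302 for FGF8, 0.0870 for FGF17 and 0.0574 for FGF18 without replicate 2, and 1.00 for FGF18 without replicate 3. A common dispersion in place of a trended one gave an edgeR adjusted p of 0.0939 for FGF18.

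FGF19 (chromosome 11, 69698238 to 69704022), which encodes a gut hormone of bile acid control and is also made in the embryonic brain, was the other ligand gene that passed. It had 36.8, 26.65 and 9.17 TPM in replicates 1, 2 and 3, from 1500, 1086 and 290 expected counts. Replicate 3 lay well below the rest, with a 4.55-fold range in CPM (edgeR adjusted p = 0.000252, and 1.00 without replicate 3). This order of libraries was that of FGF18, and the ratio of FGF19 to FGF18 was 0.403, 0.389 and 0.277 in replicates 1, 2 and 3. FGF19 lies on chromosome 11 beside FGF4 (69771022 to 69775341) and FGF3 (69809968 to 69819416), both of them ligand genes of other subfamilies. FGF3 had 1.64, 1.27 and 0.39 TPM in replicates 1, 2 and 3, from 42, 27 and 10 expected counts, also lowest in replicate 3, and did not pass the test (edgeR adjusted p = 0.449, unadjusted 0.0253). FGF4 had 6, 3 and 0 expected counts, far below its neighbour.

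By their median and their sum, markers of the midbrain and isthmus had the order of libraries of FGF18 and FGF19, and so did neuron markers. Neither list had the order of FGF8 and FGF17, which were lowest in replicate 2. FGF17 lay close together in replicates 2 and 3, at 3.45 and 3.58 log2 CPM, and without replicate 1 neither FGF8 nor FGF17 passed the test. The summed level of the midbrain and isthmus markers was 402, 326 and 217 TPM in replicates 1, 2 and 3. PAX8 at 106 ± 21.9 TPM and EN2 at 78.0 ± 21.6 TPM were the most abundant. OTX2 was the 1 marker of 7 below detection. In the edgeR test 3 of 7 of them passed, beside 1.55% of all genes tested. PAX8, EN2 and OTX2 were not among those that passed (edgeR adjusted p = 1.00, 0.503 and 1.00). Of the markers tested, 3 of 7 for neurons, 2 of 9 for neural progenitors, 1 of 7 for mesenchyme and 0 of 6 for neural crest passed. A deviation is the log2 CPM of a library minus the mean of the others. Its median over the midbrain and isthmus markers was 0.75, 0.06 and -0.72 in replicates 1, 2 and 3. On the same scale FGF18 lay at 1.11, 0.26 and -1.36, FGF19 at 1.40, 0.48 and -1.88, FGF17 at 1.76, -0.98 and -0.78 and FGF8 at 2.39, -1.93 and -0.46. Neural progenitor markers had median deviations of 0.94, -0.64 and -0.09 and neuron markers of 0.85, -0.34 and -0.40. Those of mesenchyme markers were -0.65, 0.80 and -0.15. Neural crest markers had 0.21, 0.16 and -0.19, also the order of FGF18. Their summed TPM, 187, 215 and 208, was not in that order. Summed neural progenitor markers stood at 2555, 2621 and 2305 TPM, of which VIM alone was 1899, 2113 and 1724 TPM. The part of all these marker lists in the ligand values was not tested.

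FGF2, the factor added to the medium, was itself transcribed at a low level. The gene (chromosome 4, 122826682 to 122898236) had 2.10, 3.65 and 4.64 TPM in replicates 1, 2 and 3, lowest in replicate 1, and did not pass the test (edgeR adjusted p = 0.844). It overlaps NUDT6 on the opposite strand, a gene with 360, 341 and 244 expected counts, and since strand use is not stated the reads of the pair cannot be fully told apart. FGF18 exceeded FGF2 in TPM by 43.5-, 18.8- and 7.14-fold in the 3 libraries. FGF9, a ligand of neural and gonadal tissue, had 4.0, 2.59 and 5.57 TPM in replicates 1, 2 and 3, which overlaps the range of FGF2.

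The intracellular FGF homologous factors, which stay inside the cell and bind voltage-gated sodium channels, were present in 3 of 4 cases. FGF13 had 29.8, 19.5 and 24.1 TPM, FGF12 had 15.5, 10.5 and 9.18 TPM and FGF11 had 6.26, 3.99 and 3.94 TPM in replicates 1, 2 and 3. Each was highest in replicate 1, with ranges of 1.88-, 1.49- and 1.86-fold in CPM. In the edgeR test 0 of 3 passed, and 0 had an unadjusted p under 0.05. Since 1.55% of all genes tested passed, 0 of 3 does not set these genes apart. FGF14, a neuronal member, stood at 0.14 ± 0.04 TPM. Of the 12 ligand genes tested, 9 had their highest log2 CPM in replicate 1, against 40.8% of all genes tested, and 7 had their lowest in replicate 2, against 25.7%.

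The other ligand genes were at or near 0. FGF6 of muscle, FGF16 of the heart and the metabolic hormone gene FGF21 had 0 counts in all 3 libraries, which at 3 counts per library allows up to 0.448, 0.105 and 0.172 TPM. FGF22, a synaptic organizer in the mouse, had 21, 22 and 24 expected counts in replicates 1, 2 and 3. The mesenchymal ligand gene FGF10 had 12, 12 and 13 expected counts and the phosphate hormone gene FGF23 had 20, 7 and 8. FGF7 and FGF23 overlap the genes FAM227B and AC008012.1 on the opposite strand, which held more counts than they did. FGF1, FGF5 and FGF20 had at most 13 expected counts in any library, and FGF20 stood at 0.21 ± 0.17 TPM. FGF7, a ligand made by mesenchyme for epithelium, was listed at 0.12 TPM in both replicates 2 and 3 from 1 and 10 expected counts (Poisson 95% intervals 0.0253 to 5.57 and 4.80 to 18.4). The effective length assigned to it was 321 bases in replicate 2 and 4055 bases in replicate 3, so equal TPM there stands for unequal counts. Intervals and floors cover counting error only.

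Set against each other, ligand transcripts of the FGF8 subfamily made up 73.4% ± 3.46 (SD, n = 3) of the summed TPM of the 18 ligand genes other than FGF11 to FGF14. FGF18 alone took 48.0% ± 7.29, FGF17 17.4% ± 5.26 and FGF8 8.04% ± 4.45. The endocrine genes, almost wholly FGF19, took 17.4% ± 5.09, the FGF9 subfamily 3.91% ± 2.86 and the FGF1 subfamily 3.37% ± 2.46. Without replicate 3 the FGF9 and FGF1 subfamilies took 2.26% and 2.07%. In expected counts, with no length scaling, FGF8 took 2.92% and the FGF1 subfamily 12.3%, of which FGF2 was 12.2%. The summed TPM of the 18 genes differed more between libraries, with 202, 122 and 78.1 TPM in replicates 1, 2 and 3, while the subfamily share stayed within 70.5% and 77.2%. In the order of mean TPM, FGF18 stood above FGF13, and FGF17 above FGF12, beyond the spread of their log2 ratio. The other neighbours among the detected ligand genes (FGF13 and FGF19, FGF19 and FGF17, FGF12 and FGF8, FGF8 and FGF11, FGF11 and FGF9, FGF9 and FGF2) changed places between libraries. Here a pair is said to differ beyond its spread when its log2 TPM ratio, with a pseudocount of 0.1, had 1 sign in 3 of 3 libraries and a mean above its SD. The exact two-sided sign-flip permutation test cannot go below p = 0.25 with 3 libraries.

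**Figure D2:**
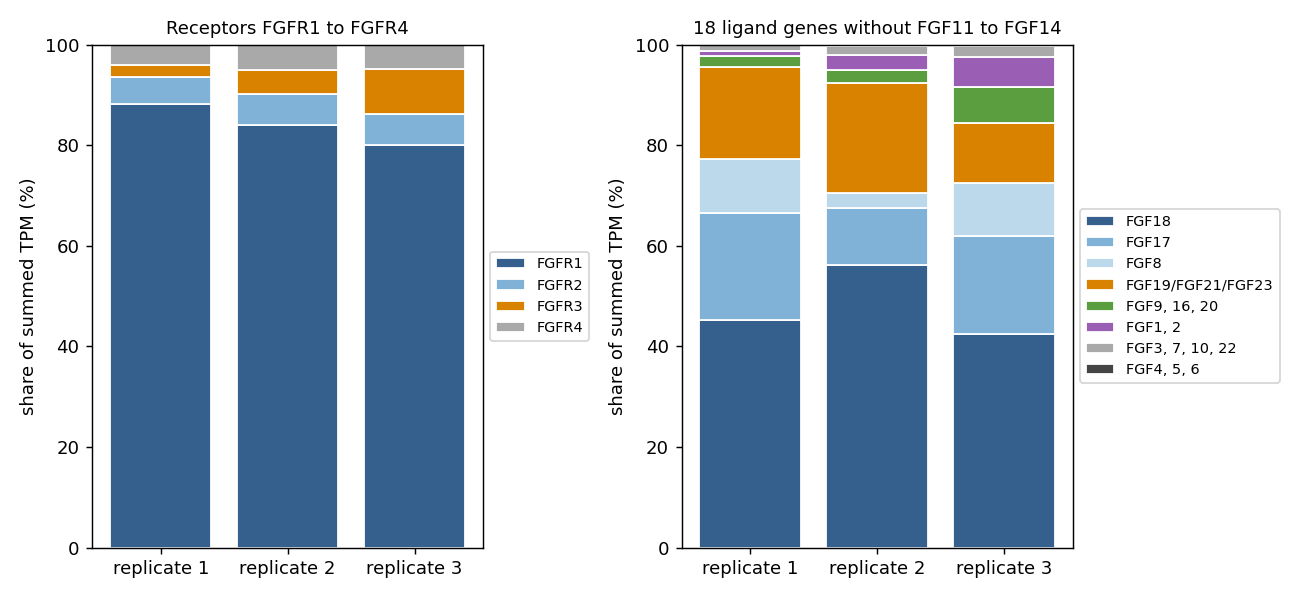
Share of summed TPM in percent (y axis) in each replicate (x axis) for FGFR1 to FGFR4 on the left and for 18 ligand genes on the right. FGFR1 takes 80.0% to 88.1% of the receptor transcripts, and FGF18, FGF17 and FGF8 together take 70.5% to 77.2% of the ligand transcripts.

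FGFR1, the main FGF receptor of early neural cells, dominated the receptors. It had 71.2, 99.1 and 94.95 TPM in replicates 1, 2 and 3, from 6911 to 8824 expected counts, and its range of 1.11-fold in CPM was narrow (edgeR adjusted p = 1.00). Its share of the summed TPM of FGFR1 to FGFR4 was 84.0% ± 4.05 (SD, n = 3), with 88.1%, 83.9% and 80.0% in replicates 1, 2 and 3. FGFR2, a receptor with epithelial and mesenchymal splice forms, had 4.40, 7.40 and 7.30 TPM, a share of 5.96% ± 0.45. FGFR4, the receptor that pairs with klotho proteins for FGF19 in the liver, had 3.25, 5.95 and 5.80 TPM, a share of 4.65% ± 0.55, or 2.83% in expected counts. FGFR1 overlaps LETM2 on the opposite strand, a gene with 90.5 to 130 expected counts. Gene tables do not separate the splice forms of the receptors, which set their choice of ligand.

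FGFR3, a receptor of cartilage and of neural progenitors, was the receptor gene that varied. It had 1.95, 5.61 and 10.6 TPM in replicates 1, 2 and 3, from 167, 488 and 606 expected counts. The 3 values were well apart, lowest in replicate 1, with a 4.07-fold range in CPM (edgeR adjusted p = 0.0145), and 0.898% of all genes tested were called with their highest value in replicate 3. The call did not survive the loss of any library, with an edgeR adjusted p of 0.614, 0.0542 and 0.507 without replicates 1, 2 and 3, and it was 0.0719 with no filter on low counts. FGFR3 took 2.41%, 4.75% and 8.93% of the receptor transcripts, and its place relative to FGFR2 and FGFR4 changed between libraries. FGFR1 exceeded FGFR3 by 36.5-, 17.7- and 8.96-fold in TPM. The deviations of FGFR3 were -1.70, 0.37 and 1.33 log2 CPM in replicates 1, 2 and 3. Median deviations of the midbrain and isthmus, neuron and neural crest markers each had the opposite order. The part of these marker lists in the FGFR3 values was not tested.

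FGFRL1, a receptor-like protein without a kinase domain, was the second receptor gene by level. It had 24.9, 12.2 and 18.4 TPM in replicates 1, 2 and 3, below FGFR1 and above FGFR2 in all 3 libraries. It was highest in replicate 1, where FGFR1, FGFR2, FGFR3 and FGFR4 were each lowest, and lowest in replicate 2. Its test gave an edgeR adjusted p of 0.283, and of 0.0389 after each library was corrected for a smooth dependence of counts on length. The 4 kinase receptor genes were the 4 of 5 receptor genes lowest in replicate 1 by log2 CPM, against 41.1% of all genes tested. In replicate 1 the median deviation of the receptor genes was -0.53, against -0.01 for all genes tested.

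The co-receptor gene KLB, which encodes beta-klotho, the partner that endocrine FGF19 and FGF21 need in liver and fat, had 18, 11 and 6 expected counts, or 0.08 ± 0.04 TPM. The related gene KL, for the FGF23 partner klotho, had 1, 0 and 0 expected counts. The adaptor gene FRS2 had 7.14, 14.5 and 13.0 TPM and FRS3, a relative of it, 5.01, 5.71 and 6.07 TPM in replicates 1, 2 and 3. Neither adaptor gene passed the test (edgeR adjusted p = 1.00 for each), and FRS3 had the narrowest range of the members tested, 1.02-fold in CPM. FRS3, with 247, 278 and 222 expected counts, overlaps AL365205.1 on the opposite strand, a gene with 190, 152 and 167.5. Since strand use is not stated, the reads of this pair cannot be fully told apart.

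**Figure D3:**
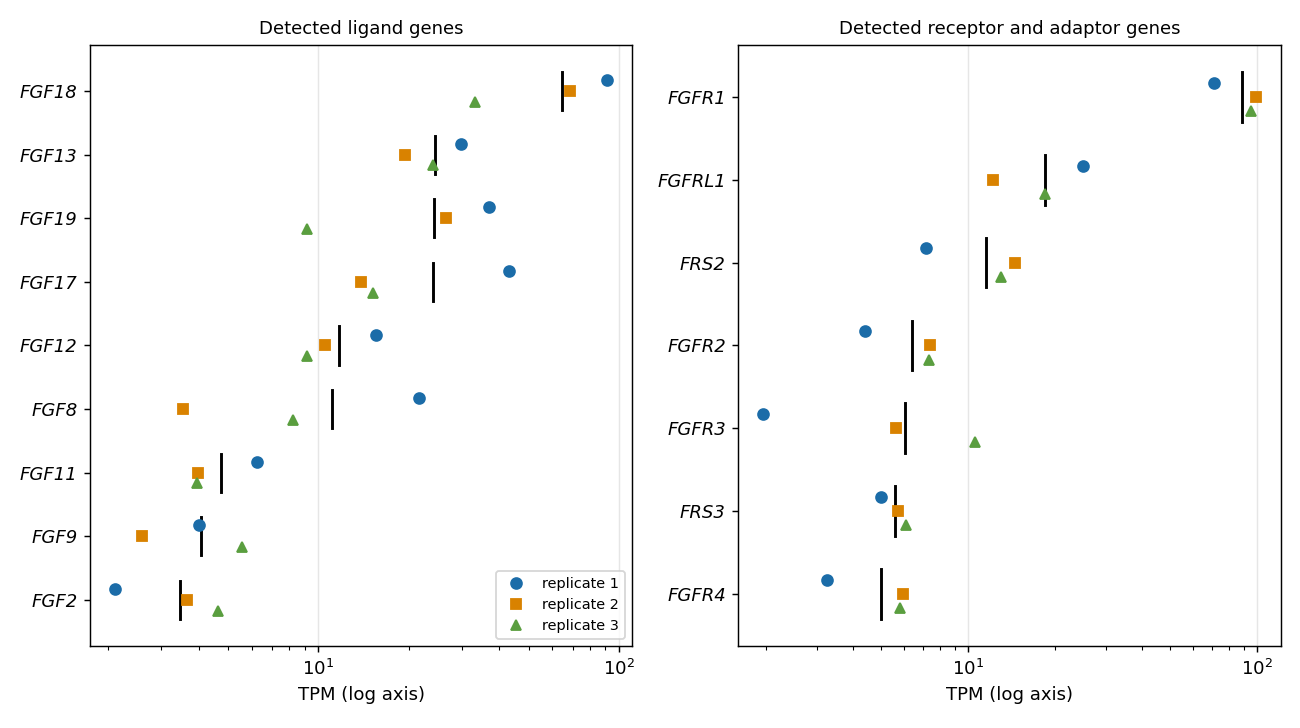
TPM on a log axis (x axis) of the 9 detected ligand genes on the left and the 7 detected receptor and adaptor genes on the right (y axis), with 1 symbol per replicate and the mean as a bar. Replicate 1 is highest for FGF18, FGF17, FGF8 and FGF19 and lowest for FGFR1 to FGFR4.

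The Sprouty genes, inhibitors of receptor tyrosine kinase signalling, were high in 3 of 4 cases. SPRY2 had 115, 97.5 and 87.9 TPM in replicates 1, 2 and 3, the highest mean of the 14 inhibitor, phosphatase and transcription factor genes. SPRY1 had 87.1, 85.7 and 60.0 TPM, and SPRY4 had 30.4, 53.0 and 40.8 TPM in the same order. SPRY2 and SPRY1 were highest in replicate 1 and SPRY4 was lowest there, so that SPRY2 exceeded SPRY4 by 3.80-, 1.84- and 2.15-fold. SPRY3, the fourth Sprouty gene, had 0.57, 0.94 and 0.83 TPM and was not detected. The SPRED genes, which restrain RAS signalling to ERK, were all detected, with SPRED2 at 31.96 ± 3.94 TPM, SPRED1 at 28.6 ± 5.97 TPM and SPRED3 at 4.59 ± 1.65 TPM (SD, n = 3).

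Among the phosphatases of MAP kinases, DUSP6, the cytoplasmic ERK phosphatase, had 67.4, 86.7 and 55.95 TPM in replicates 1, 2 and 3. The nuclear phosphatase gene DUSP4 was steadier, at 38.4, 44.1 and 38.45 TPM, and DUSP5, another nuclear ERK phosphatase, was low at 2.61 ± 0.34 TPM. All 3 phosphatase genes were lowest in replicate 3 by log2 CPM, against 33.2% of all genes tested. The edgeR adjusted p of DUSP6 was 1.00, and 0.0106 without replicate 1.

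The ETV genes, ETS transcription factors that serve as a readout of FGF signalling in vertebrate embryos, were also high. ETV4 had 71.3, 107 and 101 TPM, ETV5 had 38.7, 53.6 and 56.6 TPM and ETV1 had 19.2, 34.4 and 33.1 TPM in replicates 1, 2 and 3. All 3 were lowest in replicate 1 by TPM and by log2 CPM, against 41.1% of all genes tested by log2 CPM. ETV4 exceeded ETV5 by 1.84-, 2.00- and 1.78-fold in TPM. ETV4 overlaps DHX8 on the opposite strand, a gene with 2005 to 3273 expected counts.

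None of the 13 SPRY, SPRED, DUSP and ETV genes passed the edgeR test, and 0 had an unadjusted p under 0.05. Since 1.55% of all genes tested passed, 0 of 13 does not set these genes apart. Of the 9 ligand genes tested outside FGF11 to FGF14, 4 passed. The median range between libraries was 0.54 log2 CPM for these 13 genes, 1.65 for the 9 ligand genes and 0.42 for all genes tested. A p that misses the threshold does not show that values did not differ. The ligand genes and the 13 genes were not ordered alike across libraries. In replicate 1 the median deviation of the 9 ligand genes was 1.11 log2 CPM, and that of the 13 genes was -0.10, which turned to 0.14 with the length trend removed. By log2 CPM, 8 of the 13 were highest in replicate 2, against 25.5% of all genes tested. The summed TPM of the 13 genes was 528, 634 and 547 in replicates 1, 2 and 3. In the order of levels, DUSP4 stood above SPRED2, and SPRED1 above SPRED3, beyond the spread of their ratio, and the other 10 neighbour pairs of the inhibitor and effector genes did not.

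**Figure D4:**
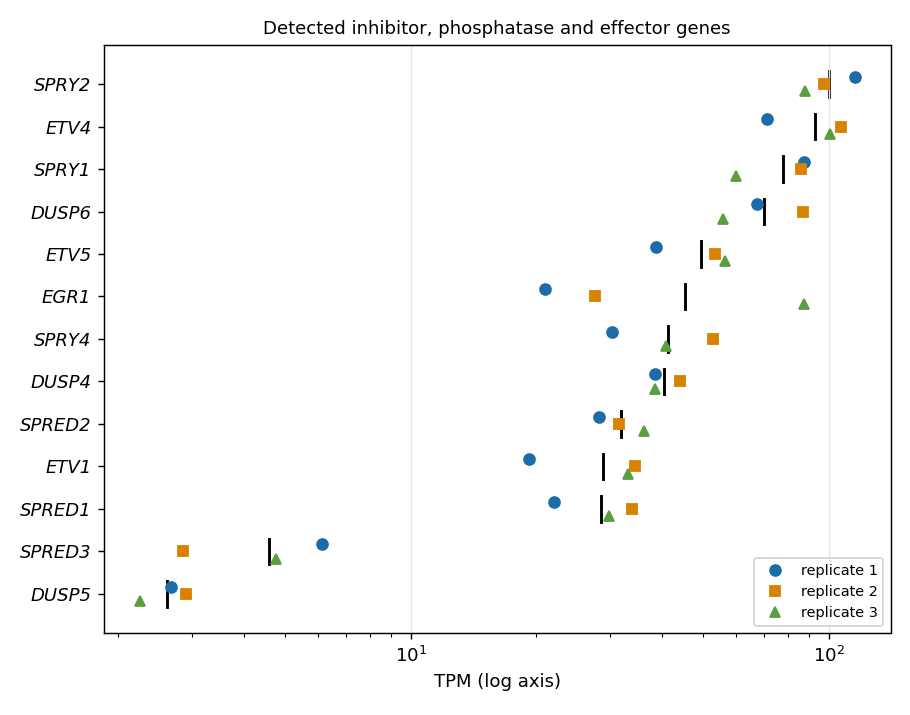
TPM on a log axis (x axis) of the 13 detected inhibitor, phosphatase and transcription factor genes (y axis), with 1 symbol per replicate and the mean as a bar. SPRY2, ETV4, SPRY1 and DUSP6 lead at means of 70.0 to 100 TPM, and EGR1 is the gene with the widest spread.

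EGR1 (chromosome 5, 138465479 to 138469303), an immediate early zinc finger gene that ERK and stress signals switch on within minutes, was the effector that varied. It had 21.0, 27.65 and 87.3 TPM in replicates 1, 2 and 3, from 1557, 2073 and 5087 expected counts. Replicate 3 stood far above the other libraries, which lay close together, with a 3.69-fold range in CPM (edgeR adjusted p = 4.33e-05, and 1.00 without replicate 3). The promoter of EGR1 is shown because it holds the kind of element through which serum response factor and ERK act on immediate early genes, the CArG box.
EGR1 promoter, chr5:138465229-138465528, plus strand: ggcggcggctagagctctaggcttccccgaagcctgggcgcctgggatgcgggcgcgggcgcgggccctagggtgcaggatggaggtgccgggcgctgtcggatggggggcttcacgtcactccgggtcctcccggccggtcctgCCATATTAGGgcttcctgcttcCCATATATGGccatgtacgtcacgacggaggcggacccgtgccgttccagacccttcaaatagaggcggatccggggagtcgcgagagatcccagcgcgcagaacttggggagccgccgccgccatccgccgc
EGR2 promoter, chr10:62816317-62816616, minus strand: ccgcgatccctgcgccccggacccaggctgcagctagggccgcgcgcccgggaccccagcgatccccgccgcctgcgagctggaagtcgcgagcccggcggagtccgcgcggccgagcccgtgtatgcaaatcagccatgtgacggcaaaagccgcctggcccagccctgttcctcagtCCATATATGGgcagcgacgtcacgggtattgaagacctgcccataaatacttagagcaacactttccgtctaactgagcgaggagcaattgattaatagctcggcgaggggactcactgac
The windows are from RefSeq (GRCh38.p14), 5′ to 3′, from 250 bases before to 50 bases after a start site, and capitals mark CArG boxes. EGR1 has 2 of them, which begin 105 and 83 bases before the start site, and EGR2, a related gene, has 1 in the window of 1 of its 3 annotated start sites, 71 bases before it. Of all 35116 promoter windows 1.29% hold a CArG box, and 0.0313% hold 2 or more. Among members with a window (32 of 44), EGR1 and FGF3 had a CArG box, and among the other pathway genes with one (43 of 57), EGR2 and FGFBP2 did. The windows of FOS, FOSB and JUN had none. Boxes further than 250 bases before a start site were not searched, so a window without one does not show that the gene lacks it. The ETS motif CCGGAAGT, searched on both strands, was in the windows of FRS2, NRAS, SHC1 and NF1 and in 4.14% of all windows. It was in no window of EGR1 or EGR2, and shorter or variant forms of the motif were not searched. A match is a description of the letters and not a site of binding.

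Other immediate early genes were also highest in replicate 3. FOS, a partner in the AP-1 factor, had 16.4, 35.5 and 87.4 TPM in replicates 1, 2 and 3 (edgeR adjusted p = 2.97e-05, and 0.744 without replicate 3). JUN, the other main AP-1 gene, had 13.5, 49.4 and 101 TPM (edgeR adjusted p = 7.71e-08, and at most 0.0198 with any 1 library left out). FOSB had 0.38, 2.45 and 9.07 TPM, lowest in replicate 1 by a wide margin (edgeR adjusted p = 1.22e-06, and 0.312 without replicate 3). EGR2 had 0.31, 0.37 and 1.39 TPM (edgeR adjusted p = 0.0243, 0.474 without replicate 2, 1.00 without replicate 3 and 0.143 with no filter on low counts), and EGR3, with 3, 7 and 31 expected counts, was too low to be tested. These belong to a list of 20 other ERK-responsive genes, of which 16 were detected (not FOSB, EGR2, EGR3 and DUSP2) and 4 of 19 tested passed, all with their highest value in replicate 3, against 0.898% of all genes tested. The remaining genes of that list did not pass, among them the most abundant, IER3 at 68.9 ± 13.6 TPM, the G1 cyclin gene CCND1 at 68.6 ± 13.99 TPM and IER2 at 68.0 ± 13.5 TPM, and DUSP2, a phosphatase gene, stood at 0.91 ± 0.21 TPM. By log2 CPM, 12 of the 19 were highest in replicate 3, against 33.7% of all genes tested. The list of ERK-responsive genes was chosen with earlier results of these data known. Replicate 3 was also the library with the fewest expected counts and with the most genes at 1 TPM or more, 16115 against 15349 and 15541 in replicates 1 and 2, and the part of this in the values was not tested.

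**Figure D5:**
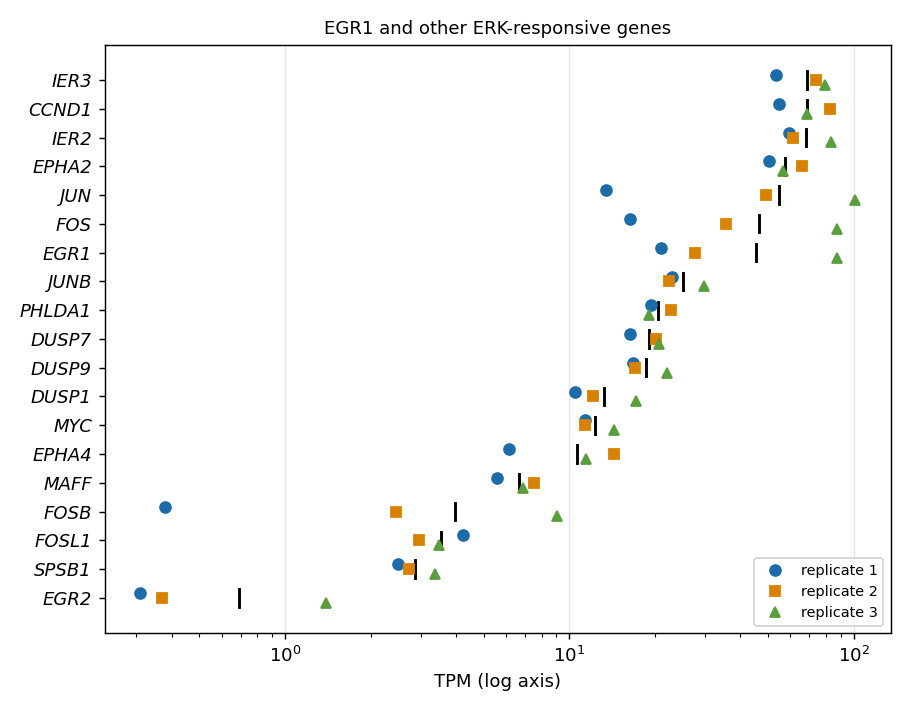
TPM on a log axis (x axis) of EGR1 and of 18 other ERK-responsive genes (y axis), with 1 symbol per replicate and the mean as a bar. EGR1, FOS, JUN, FOSB and EGR2 are highest in replicate 3, while CCND1 is highest in replicate 2.

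The intracellular route from receptor to ERK was present throughout. All 12 genes for adaptors and RAS activation were detected, led by the phospholipase gene PLCG1 at 206 ± 52.9 TPM, the adaptor gene SHC1 at 184 ± 35.3 TPM and NRAS at 72.7 ± 9.43 TPM (SD, n = 3). All 10 kinase cascade genes were detected, among them the MEK gene MAP2K2 at 120 ± 13.5 TPM and the ERK gene MAPK3 at 50.8 ± 1.03 TPM. In the edgeR test 0 of 12 and 0 of 10 of these genes passed, beside 1.55% of all genes tested, with 1 of each list at an unadjusted p under 0.05. All 6 RAS inhibitor genes were detected, among them DAB2IP at 32.8 ± 4.56 TPM and RASA1 at 26.4 ± 5.87 TPM. NF1, which encodes neurofibromin, was the 1 of 6 that passed, with 11.2, 20.0 and 27.7 TPM in replicates 1, 2 and 3 (edgeR adjusted p = 0.0123). Its call was lost with a common dispersion (0.107), with the length trend removed (0.117) and without replicates 1, 2 and 3 (1.00, 0.0888 and 0.196).

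Membrane and extracellular modulators of FGF signalling were detected in 6 of 9 cases. FGFBP3, which encodes a carrier protein for FGFs, stood at 103, 56.7 and 49.9 TPM in replicates 1, 2 and 3, highest in replicate 1 as FGF8, FGF17, FGF18 and FGF19 were, but did not pass the edgeR test (adjusted p = 0.0805, unadjusted 0.00151). Under other settings its edgeR adjusted p was 0.0430 with upper-quartile scaling, 0.0405 with no filter on low counts and 0.00283 with the length trend removed, and 1.00, 0.359 and 0.512 without replicates 1, 2 and 3. IL17RD, which encodes the FGF antagonist SEF, had 49.3, 74.8 and 72.7 TPM, lowest in replicate 1 as the ETV genes were. FLRT3, a membrane protein that binds FGF receptors, was at 14.1 ± 2.49 TPM, FGFBP2 was at 0.56 ± 0.15 TPM, and FGFBP1 had 0 counts, which allows up to 0.136 TPM. In this list 0 of 6 genes tested passed and 1 had an unadjusted p under 0.05. Of the 53 pathway genes tested outside the members, 5 passed, all with their highest value in replicate 3. Among all genes tested, 1.55% passed in any order of libraries. The pathway lists, too, were chosen with earlier results of these data known.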

How the data were processed

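Per the file headers, the authors deposited 1 RSEM gene table per library, with expected counts, TPM, FPKM and 2 kinds of length. Tools and genome build come from the submitters' processing notes, which list RSEM 1.3.1, STAR 2.7.11a, Trim Galore 0.6.10 and GRCh38 but not their settings. No annotation release or strand use is stated. The deposited expected counts are not normalized. The authors' TPM accounts for effective length and library total, and their deposited FPKM was used only in alternatives.

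Expected counts were rounded and filtered with filterByExpr in edgeR 4.0.16 (R 4.3.3). An intercept-only fit with TMM scaling gave a residual deviance at the trended dispersion, compared with a chi-square distribution and adjusted by Benjamini-Hochberg over all genes tested. Log2 CPM used a prior count of 2. Gene types came from GENCODE release 29, which matched 92.8% of identifiers, and coordinates from RefSeq (GRCh38.p14). Any member could be named. Other pathway lists named genes from their 3 highest (some are not reported here), those that passed and up to 3 undetected genes, and marker lists their 2 highest and any undetected gene. Members and lists were chosen with earlier results of these data known. Alternatives covered scaling, filters, dispersion, a length trend and leaving out each library.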

Additional observations from a re-analysis of the deposited data

How the results depend on the processing

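Without 1 library at a time, 2 to 4 members and 95 to 117 of all genes passed the edgeR test, against 6 and 265 with all 3 libraries. Fewer libraries leave fewer degrees of freedom in that fit, and the variation between libraries that edgeR estimated also changed. As a coefficient of variation it was 22.56% with all 3 libraries. It was 14.01%, 26.63% and 24.79% without replicates 1, 2 and 3. The part of either change in the lower numbers of passing genes was not tested. With all 3 libraries, 5 to 7 members passed under the other scalings, filters and dispersions. The FGF8 subfamily share of 73.4% was 64.4% in expected counts, which are not scaled for length, the alternative that also moved the shares of FGF8 (2.92% against 8.04%), FGF2 (12.2% against 3.32%) and FGFR4 (2.83% against 4.65%). The replicate 1 median of the 13 SPRY, SPRED, DUSP and ETV genes, -0.10 log2 CPM, was 0.14 with the length trend removed, and -0.31 to -0.19 against 1 library alone, an alternative chosen after seeing the data. Neighbour pairs that differed beyond their spread numbered 6 of 24, 11 in expected counts, and 9 to 12 with 1 library left out, also chosen after seeing the data. Detected members numbered 29, and were not moved by over 1.5 times by a TPM minimum of 0.5 or 5, by FPKM or by leaving out a library. No paired analysis was possible because there is 1 group. At counts under about 50, as for most undetected ligand genes, counting error limits what can be compared.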
